A study of Mus musculus with 27 samples.

Results

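Glucose breakdown and the answer to low oxygen were followed through 33 genes that encode glycolytic enzymes, the carriers and enzymes around them, and the sensors and targets of hypoxia-inducible factor (HIF). The genes were taken from a fixed list of symbols, and all 33 were found in each of 3 deposited tables of mouse intestine, of 23597 entries for organoids, 27316 for embryonic and adult tissue and 27179 for tumours. They comprise 14 glycolytic enzymes, 4 genes of glucose entry, lactate handling and pyruvate use, 2 HIF alpha subunits, 2 HIF prolyl hydroxylases, 2 secreted signals, 5 genes of mitophagy and stress, and 4 genes of secretory folding and collagen hydroxylation.

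Glycolysis splits glucose into pyruvate, which is either burned in mitochondria or reduced to lactate and exported. HIF is a transcription factor whose alpha subunit is hydroxylated and destroyed when oxygen is plentiful, and in low oxygen it binds short motifs beside many glycolytic genes and raises their transcription. The gut epithelium lives next to a lumen that is nearly free of oxygen, and the dividing cells of the crypt rely on glycolysis more than villus cells do.

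The series asked what the gut does without Taf4, a subunit of TFIID, the complex that places RNA polymerase on promoters, and it holds 27 RNA-seq libraries in 9 groups of 3. E17.5 intestine was labelled KO or WT. According to the study's methods, KO embryos were Taf4lox/lox::VilCre and WT embryos Taf4lox/lox littermates, so that the gene was deleted in epithelium alone while the whole intestinal tissue, with its stroma, was sampled. Ileum of 8-week-old mice was labelled KO after tamoxifen and WT after sunflower oil, whereas the methods describe Taf4lox/lox::VilCreERT2 and Taf4lox/lox mice that all received tamoxifen and were taken 10 days later. Ileal organoids, epithelial cultures grown from crypts, received 4-hydroxytamoxifen (4-OHT, 1 µM) together with the Ezh2 inhibitor EPZ-6438 (1 µM, written EPZ here; Ezh2 methylates histones), or 4-OHT alone for 3 days (stated for replicates 2 and 3 only), or were controls. The donors of the 4-OHT and control cultures were 4 months old. The methods describe the 4-OHT and EPZ cultures as Taf4lox/lox::VilCreERT2, in which 4-OHT inactivates Taf4. The labels call the controls ethanol-treated, but the methods describe them as 4-OHT-treated Taf4lox/lox cultures without CreERT2. The EPZ cultures were grown for 11 days according to the labels and for longer according to the methods. The methods took 4-OHT and control cultures at day 3, so the drug and the time in culture cannot be told apart. Ileal tumours came from mice with the Apc mutation APCd14, with Taf4 loss (Taf4KO-Apc) or without it (Apc), after tamoxifen at 6 to 8 weeks of age. Mice were of mixed C57Bl6 and 129sv background. Embryos and adults were separate animals. Organoid replicates were separate wells, so organoid p-values measure the spread between wells and not between animals. By the methods, control and 4-OHT cultures came from mice of different genotype, so donor and Taf4 loss cannot be told apart. Tumour libraries carry animal codes, and that of Taf4KO-Apc replicate 3 joins those of replicates 1 and 2. The tumour p-values thus measure the spread between libraries that may not all be independent.

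For embryos, adults and organoids the deposited values were means over 3 libraries of normalised reads divided by the median transcript length in kb. Reads of each library were solved from these means, at 11.8 to 18.9 M recovered reads per library, and tumour libraries held 22.9 to 39.1 M. The solved libraries carry no replicate number and are called a, b and c within each group. Values are given below as normalised reads per kb, or as FPKM (fragments scaled to transcript length and library size) in tumours. A change is a log2 fold change from limma with its standard error (SE), and a gene was called at a Benjamini-Hochberg adjusted p under 0.05 over all genes of the table. Taf4 itself, named Taf4a in these tables, could not check the labels, since deletion of an exon need not lower the reads of the whole gene. It had 476 to 516 normalised reads per kb in adult KO libraries, against 366 to 382 in WT, 275 to 324 in embryo KO libraries, against 208 to 256 in WT, and 193 to 215 with EPZ and 275 to 292 with 4-OHT alone, against 255 to 274 in control organoids. In organoids the endothelial, fibroblast, smooth muscle, leukocyte and erythroid lists each summed to at most 52.1 normalised reads per kb. The skeletal muscle list summed to 149 to 164 in controls, 578 to 617 with 4-OHT and 43.0 to 52.4 with EPZ. The enteric neuron list summed to 260 to 276 in controls, 103 to 106 with 4-OHT and 180 to 267 with EPZ. In each of these 2 lists, 2 genes had a mean under 10. In embryos the 6 fibroblast markers summed to 172195 normalised reads per kb in KO, against 97296 in WT, and the 7 epithelial markers to 30415 in KO, against 48495 in WT. In whole tissue, fewer cells of a type and less RNA per cell cannot be told apart.

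In organoids, Taf4 inactivation by 4-OHT went with a broad fall of the glycolytic and HIF target genes, while both HIF alpha subunits rose. Of the 33 members, 20 were at least 2-fold lower in 4-OHT organoids than in controls by the deposited means, a size reached by 11.3% of the 13929 genes compared, and 1 was at least 2-fold higher, against 11.9% of genes. Reads per library could be solved in both groups for 28 members, of which 23 fell and 2 rose past the limma threshold, where 28.5% and 28.3% of all genes did so. The median ratio of the 33 members was -1.12 on the log2 scale, against 0.00 over all genes compared.

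Promoter sequence was read for the HIF motif. The list was drawn up to hold HIF targets, so a motif share above that of all genes describes the list and is no separate support. A promoter sequence from RefSeq (GRCm38.p6) was matched for 29 members, all but Bnip3l, Epas1, Ndrg1 and Plod2, and 23 of these (79.3%) held the HIF core letters ACGTG or GCGTG on either strand within 250 bases before the first listed gene start, against 38.6% of 27025 genes. At least 2 such places were found in 16 of the 29 (55.2%), against 13.8% of all genes. The letters also occur within CACGTG, the site of other factors, which was present in 4 of the 29 promoters (13.8%) and in 6.05% of all. Member promoters had a median GC content of 62.8%, against 52.0% over all genes, and the part of GC content in the motif shares was not tested. A match is a description and not a bound site. Of the 8 members called lower with 4-OHT at a log2 fold change under -2, described next, 7 had a sequence in the table, and these are shown at every start listed, so that promoters with and without the motif can be seen. They run 5′ to 3′ on the gene's strand and end at the base before the start, with the motif letters of either strand in capitals. They lie, in the order printed, at chr11:54100674-54100923 (plus strand), chr11:120948817-120949066 (plus strand), chr4:43506776-43507025 (plus strand), chr8:45999851-46000100 (minus strand), chr6:82774455-82774704 (minus strand), chr10:62379909-62380158 (minus strand), chr10:62340422-62340671 (minus strand) and chr7:138909507-138909756 (minus strand).
P4ha2: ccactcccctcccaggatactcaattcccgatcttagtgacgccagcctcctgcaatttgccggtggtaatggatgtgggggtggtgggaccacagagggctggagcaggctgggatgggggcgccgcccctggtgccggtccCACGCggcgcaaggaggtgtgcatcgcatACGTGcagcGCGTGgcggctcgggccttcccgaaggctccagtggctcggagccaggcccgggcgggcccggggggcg
Slc16a3: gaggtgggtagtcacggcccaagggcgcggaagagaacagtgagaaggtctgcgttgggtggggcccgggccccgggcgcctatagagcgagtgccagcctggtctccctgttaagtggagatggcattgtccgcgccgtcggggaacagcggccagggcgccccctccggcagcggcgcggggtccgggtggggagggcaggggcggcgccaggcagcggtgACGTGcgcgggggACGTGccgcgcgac
Car9: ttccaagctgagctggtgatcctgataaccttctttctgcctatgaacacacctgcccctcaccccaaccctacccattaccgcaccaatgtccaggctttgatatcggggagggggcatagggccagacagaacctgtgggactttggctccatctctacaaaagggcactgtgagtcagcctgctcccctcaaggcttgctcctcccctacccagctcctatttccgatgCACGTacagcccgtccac
Ankrd37: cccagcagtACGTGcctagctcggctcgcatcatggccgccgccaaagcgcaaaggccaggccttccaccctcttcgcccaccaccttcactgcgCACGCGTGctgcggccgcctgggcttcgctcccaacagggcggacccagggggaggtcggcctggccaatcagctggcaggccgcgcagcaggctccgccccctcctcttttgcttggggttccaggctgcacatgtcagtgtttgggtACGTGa
Hk2: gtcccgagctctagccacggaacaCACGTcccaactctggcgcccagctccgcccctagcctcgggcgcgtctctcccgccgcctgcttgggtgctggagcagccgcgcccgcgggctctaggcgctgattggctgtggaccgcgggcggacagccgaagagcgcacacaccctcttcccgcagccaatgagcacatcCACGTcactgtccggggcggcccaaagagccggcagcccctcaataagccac
Hk1, start listed first: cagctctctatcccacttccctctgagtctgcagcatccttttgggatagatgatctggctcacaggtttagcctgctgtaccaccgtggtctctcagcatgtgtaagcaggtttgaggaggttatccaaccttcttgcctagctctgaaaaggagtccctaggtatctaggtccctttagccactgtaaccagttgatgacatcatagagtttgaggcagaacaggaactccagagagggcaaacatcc
Hk1, start listed next: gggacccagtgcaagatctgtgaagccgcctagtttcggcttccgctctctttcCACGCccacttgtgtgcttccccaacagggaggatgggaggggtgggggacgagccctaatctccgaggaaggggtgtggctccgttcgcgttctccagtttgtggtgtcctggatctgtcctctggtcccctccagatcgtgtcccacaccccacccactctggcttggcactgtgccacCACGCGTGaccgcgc
Bnip3: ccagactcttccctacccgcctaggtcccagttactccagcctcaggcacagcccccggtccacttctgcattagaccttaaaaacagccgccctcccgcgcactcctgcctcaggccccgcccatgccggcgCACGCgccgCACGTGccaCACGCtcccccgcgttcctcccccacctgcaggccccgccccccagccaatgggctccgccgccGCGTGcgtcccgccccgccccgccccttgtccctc

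Matches on the 2 strands within 1 CACGTG were counted as 1 place, and other overlapping matches, such as those in CACGCGTG, as separate places. Ankrd37 and Bnip3 held 4 places each, P4ha2 3, Hk2 and Slc16a3 2 each and Car9 1. Hk1 held 0 at the start listed first and 3 at the other. At the first listed start 6 matched members had 0 places, namely Aldoa, Gpi1, Hk1, Pkm2, Tpi1 and Vegfa. With all listed starts 27 of 29 members (93.1%) held a match at 1 or more of them, all but Gpi1 and Tpi1, against 41.5% of genes. Hif1a, which rose, held 2 places.

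The hexokinase genes Hk1 and Hk2 fell most among the tested glycolytic enzymes of the members. Hexokinases trap glucose in the cell as glucose 6-phosphate. Hkdc1, a gene of the same family outside the members, rose, as given below. Hk2 had 230, 226 and 228 normalised reads per kb in 4-OHT organoids, against 1229, 1085 and 1205 in controls (log2 fold change -2.36, SE 0.12, adjusted p = 1.1e-07). Hk1 had 553, 487 and 403 in 4-OHT organoids, against 2422, 1908 and 2399 in controls (log2 fold change -2.22, SE 0.19). In neither of these called genes did the libraries of the groups come near each other, and the share over all genes was not counted. Of the 3 phosphofructokinase genes, which encode the committing step, Pfkl had 4800, 3613 and 3152 normalised reads per kb in 4-OHT organoids, against 15538, 13401 and 14344 in controls (log2 fold change -1.92, SE 0.19). Pfkp fell less (log2 fold change -0.60, SE 0.16), and the change of Pfkm, whose product is the muscle form, was -0.30 with an adjusted p of 0.053. Later in the pathway Pgk1, Pgam1, Tpi1 and Aldoc fell, with log2 fold changes of -1.47, -1.17, -0.66 and -0.73. The call of Aldoc was lost without control library a or c or without 4-OHT library b or c (adjusted p 0.065 to 0.095). Gpi1, which interconverts glucose and fructose phosphates, had a log2 fold change of 0.19 (SE 0.10, adjusted p = 0.15). For the most abundant enzymes only the means were available, with no test. Aldoa, Eno1, Pkm2 and Ldha had log2 ratios of -1.16, -0.89, -1.08 and -0.58, and Gapdh was at -0.10, with 45829 normalised reads per kb in 4-OHT organoids and 49046 in controls.

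Around the pathway, Slc16a3, which carries lactate out of the cell, had 702, 316 and 247 normalised reads per kb in 4-OHT organoids, against 3171, 2542 and 2988 in controls (log2 fold change -2.92, SE 0.33, adjusted p = 3.1e-05). Pdk1, the kinase that keeps pyruvate out of mitochondria, fell by 1.79 on the log2 scale (SE 0.15), and Slc2a1, the basal glucose carrier, fell by 1.06 (SE 0.13). The HIF targets with other tasks moved the same way. Car9, a carbonic anhydrase on the cell surface, had 545, 474 and 465 normalised reads per kb in 4-OHT organoids, against 3301, 2834 and 3128 in controls. Bnip3, a receptor that marks mitochondria for removal, had 2670, 1607 and 1503 in 4-OHT organoids, against 8577, 7208 and 8437 in controls. Ankrd37, a small ankyrin-repeat protein induced by HIF, had 80.6, 51.5 and 49.3 in 4-OHT organoids, against 344, 290 and 392 in controls. Their log2 fold changes were -2.64, -2.11 and -2.50. No 4-OHT library overlapped a control library in these called genes, and the share over all genes was not counted. Adm, the gene of the vessel-relaxing peptide adrenomedullin, fell by 1.68 (SE 0.30). Vegfa, the main growth signal for vessels, fell by only 0.35 (SE 0.07, adjusted p = 0.0022). Ndrg1, a stress gene expressed strongly in these cultures, had a log2 fold change of 0.00 (SE 0.24).

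The genes of protein folding and collagen modification held the widest gap. Plod2 (chromosome 9, bases 92437061 to 92503266 of the mm9 genome), which hydroxylates lysines of collagen, was nearly silent in 4-OHT organoids, with 0, 0 and 2 reads in the 3 libraries, against 287, 243 and 261 reads in controls. The level in controls was 469-fold that in 4-OHT organoids, with an exact 95% interval of 129 to 3882 that covers counting error only. P4ha2, which hydroxylates prolines of collagen, had 80.4, 46.1 and 60.9 normalised reads per kb in 4-OHT organoids, against 771, 600 and 728 in controls (log2 fold change -3.48, SE 0.26, adjusted p = 1.6e-06). Its relative P4ha1 fell by 1.02 (SE 0.19), and Ero1l, an oxidase that drives disulphide formation in the endoplasmic reticulum, fell by 1.35 (SE 0.18).

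The HIF subunits and their hydroxylases moved in opposite directions. Epas1, which encodes HIF-2 alpha, had 209, 191 and 209 normalised reads per kb in 4-OHT organoids, against 59.2, 57.7 and 69.0 in controls (log2 fold change 1.71, SE 0.10, adjusted p = 2.9e-07). Hif1a had 1478, 1615 and 1536 in 4-OHT organoids, against 1081, 998 and 1115 in controls (log2 fold change 0.54, SE 0.15, adjusted p = 0.011). Each 4-OHT library thus lay above each control library in both of these called genes, and the share over all genes was not counted. Egln1 and Egln3, oxygen sensors that mark the alpha subunits for destruction and are themselves HIF targets, fell, with log2 fold changes of -1.12 (SE 0.16) and -1.78 (SE 0.29).

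**Figure D1:**
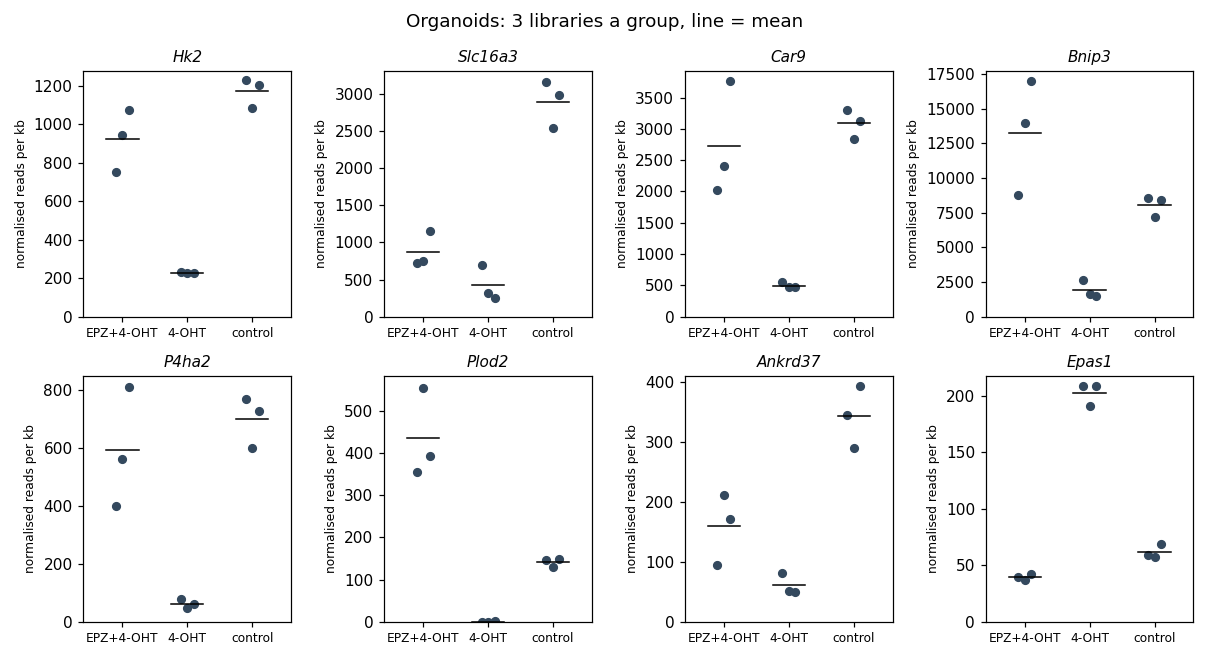
Normalised reads per kb of 8 members in each of 3 libraries of organoids with EPZ and 4-OHT, with 4-OHT alone and of controls, with the mean as a line and every axis starting at 0. In 7 genes the 4-OHT libraries lie at the bottom, with Plod2 at 0, 0 and 0.931, while Epas1 is highest with 4-OHT, at 191 to 209.

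Other genes of these pathways, from lists of related genes, did not all follow. The counts below are to be read against the 28.5% of all genes that fell and the 28.3% that rose. Among 24 further HIF targets tested, 13 fell and 6 rose with 4-OHT. Among those that fell were Ak4, a mitochondrial adenylate kinase, at -4.93 (SE 0.50), Car12, a carbonic anhydrase, at -3.36 (SE 0.14) and Mif at -1.99 (SE 0.20). Among 10 other glycolytic isoenzymes 2 fell and 5 rose. Hkdc1, of the hexokinase family, and the liver-type pyruvate kinase gene Pklr rose by 1.76 (SE 0.16) and 1.68 (SE 0.12). The glucose carrier of the enterocyte base, Slc2a2, rose by 2.25 (SE 0.13). Of 9 HIF partners and turnover genes 4 fell and 3 rose, with Hif3a at -1.15 and Cited2 at 0.88. Of 7 pentose phosphate genes 1 fell and 1 rose. Markers of dividing cells moved with these genes. The 5 dividing-cell markers summed to between 4563 and 5098 normalised reads per kb in 4-OHT organoids, against 21646 to 22002 in controls. The sum of epithelial markers moved the opposite way. The 7 of them summed, over the deposited means, to 141676 in 4-OHT organoids, against 79321 in controls. Vil1, a protein of the brush border, averaged 48225 with 4-OHT, against 20723 in controls. Krt20, a keratin of differentiated cells, had 7545, 7320 and 7428 with 4-OHT, against 705, 662 and 886 in controls. The 4 epithelial markers with solved reads summed to 24344 to 24688 with 4-OHT and 19189 to 20314 in controls. Krt20 thus rose by more than this sum did, so the markers did not all move alike. The part of these cell types in the result was not tested.

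Organoids given EPZ with 4-OHT had higher levels of most members than organoids given 4-OHT alone. This comparison uses the same 4-OHT libraries as the comparison above, so the values are set side by side and are not independent. By the deposited means 22 of 33 members were at least 2-fold higher in EPZ than in 4-OHT organoids, against 17.2% of 14109 genes, and 1 was at least 2-fold lower, against 18.0% of genes. Of 25 members with solved reads 20 rose and 3 fell past the threshold, where 35.1% and 35.3% of all genes did so. The median ratio of the members was 1.21 on the log2 scale, against 0.01 over all genes.

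Plod2 had 356, 555 and 394 normalised reads per kb in EPZ organoids, against 0, 0 and 0.931 in 4-OHT organoids. That is a ratio of 1439, with an exact 95% interval of 398 to 11887 for counting error only. P4ha2 had 402, 563 and 811 in EPZ organoids, and its log2 fold change over 4-OHT was 3.19 (SE 0.26). Bnip3 had 8802, 13960 and 16956 (log2 fold change 2.78, SE 0.25), Car9 2023, 2412 and 3764 (2.42, SE 0.19) and Hk2 751, 947 and 1076 (2.00, SE 0.12). Pdk1 rose by 1.93 (SE 0.15). Among the abundant enzymes, Pgk1 averaged 18264 in EPZ organoids and 3091 in 4-OHT organoids, and Ldha 70259 in EPZ organoids and 34051 in 4-OHT organoids, with no test. The exceptions were the HIF subunits and Vegfa. Epas1 had 40.0, 36.7 and 42.1 in EPZ organoids (log2 fold change -2.35, SE 0.10, adjusted p = 2.4e-08), Hif1a changed by -0.40 (SE 0.15, adjusted p = 0.033), and Vegfa had 1115, 1167 and 1260 (log2 fold change -0.91, SE 0.07). The call of Hif1a was lost when any one of the 4-OHT libraries was left out (adjusted p 0.056 to 0.095) and with equal library totals (0.066), and that of Pfkp (0.42, SE 0.16) without 4-OHT library b or c or EPZ library b or c (0.084 to 0.11). The dividing-cell markers moved with the members here too and summed to between 13904 and 20566 normalised reads per kb in EPZ organoids, against 4563 to 5098 with 4-OHT alone. The epithelial means summed to 78849 with EPZ, against 141676 with 4-OHT alone, and Krt20 had 1113, 1400 and 1347 with EPZ. Their part was not tested.

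Set against controls, EPZ organoids did not return to the same level in every gene. By the means 3 members were at least 2-fold lower (13.3% of 14001 genes) and 2 at least 2-fold higher (12.4%). Past the limma threshold 8 of 25 were lower and 3 higher, where 31.5% of all genes were lower and 31.5% higher, so that the members' share lay near the background for lower calls and under it for higher calls. Slc16a3 had 724, 743 and 1153 normalised reads per kb in EPZ organoids, against 3171, 2542 and 2988 in controls (log2 fold change -1.76, SE 0.33). Vegfa was lower in EPZ organoids at -1.26 (SE 0.07), Ankrd37 at -1.16 (SE 0.29), Slc2a1 at -0.79 (SE 0.13) and Epas1 at -0.64 (SE 0.10). Plod2 was higher at 1.59 (SE 0.38), Bnip3l, a second mitophagy receptor, at 0.71 (SE 0.09) and Bnip3 at 0.67 (SE 0.25). The call of Bnip3 was lost when any library other than EPZ library a was left out (adjusted p 0.070 to 0.12), and those of Hk1, Hk2 and Pfkl, at -0.64, -0.36 and -0.58, without control library a or EPZ library a (0.051 to 0.080). Hk2 also lost its call without control library c (0.071) and Pfkl without EPZ library b (0.068). The EPZ libraries differed among themselves across the members. Library a was the lowest of the 3 in 22 of 25 members and library c the highest in 20. Without library c, 14 members were lower than in controls, without library a, 5 were lower and 5 higher, and without control library a, 5 were lower. With 4-OHT alone, library a was the highest in 27 of 32 members.

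**Figure D2:**
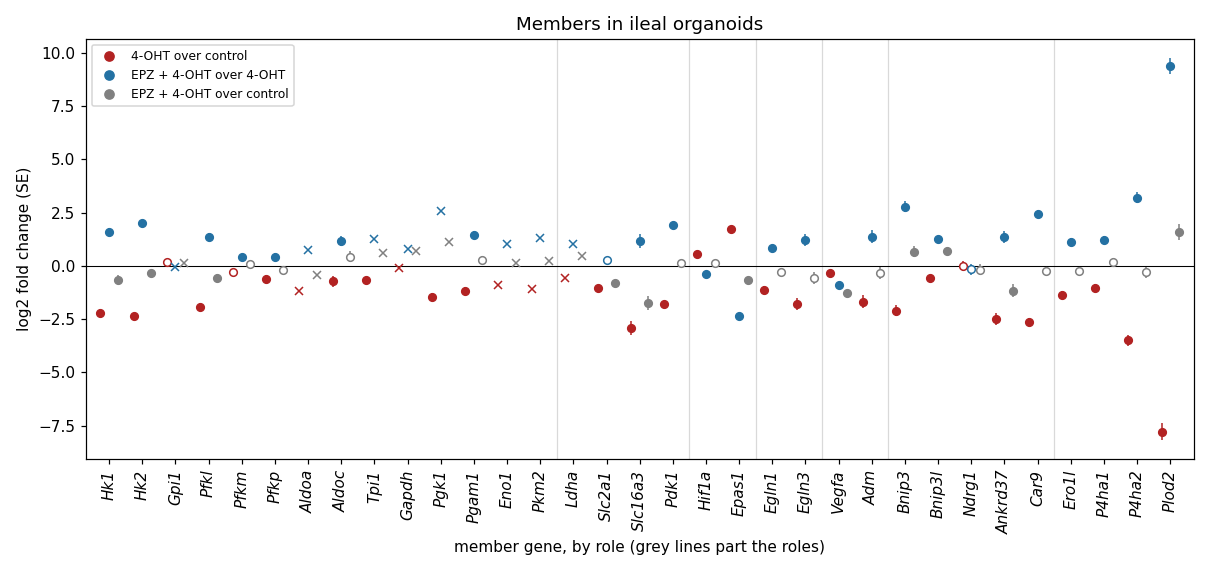
Log2 fold change of the 33 members, ordered by role, for 4-OHT over control, EPZ with 4-OHT over 4-OHT alone, and EPZ with 4-OHT over control. Bars are SE from limma, filled circles passed the threshold, and crosses are ratios of means with no test. Most red points (4-OHT over control) lie below 0 with blue points (EPZ over 4-OHT) above 0, and Epas1 and Hif1a show the opposite.

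Beyond the members, 7 of 24 further HIF targets were lower and 11 higher in EPZ than in 4-OHT organoids, in a comparison where 35.3% of all genes were lower and 35.1% higher. Angptl4, a secreted lipase inhibitor, rose by 6.70 (SE 0.39), Ak4 by 6.21 (SE 0.50) and Higd1a by 2.48 (SE 0.11). Ldhb, the lactate dehydrogenase subunit of oxidative tissues, rose by 6.70 (SE 0.39), and it was also 5.66 (SE 0.39) above controls. Pklr and Slc2a2 fell, with changes of -1.99 (SE 0.12) and -4.40 (SE 0.13). Of 10 genes of the pyruvate dehydrogenase system 2 fell and 6 rose, to be read against the same shares.

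In adult ileum, Taf4 loss went with a fall of 7 members and with a rise of 4 glycolytic enzymes. By the deposited means 4 members were at least 2-fold lower in KO than in WT ileum, against 6.58% of 16748 genes, and 0 at least 2-fold higher, against 3.58%. Of the 33 members, 7 fell and 4 rose past the limma threshold, where 13.2% and 7.00% of all genes did so (8.72% and 16.4% with libraries scaled to equal totals). The median change of the members was -0.09, against -0.05 over all genes tested.

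Hk2 had 586, 687 and 428 normalised reads per kb in KO ileum, against 1616, 2150 and 2449 in WT (log2 fold change -1.87, SE 0.18, adjusted p = 1.6e-05). Slc16a3 had 193, 194 and 222 in KO, against 536, 550 and 833 in WT (log2 fold change -1.62, SE 0.22, adjusted p = 0.0002). Vegfa had 929, 782 and 876 in KO, against 2164, 1995 and 2207 in WT (log2 fold change -1.30, SE 0.09, adjusted p = 2.1e-06). Ankrd37 had 46.7, 51.0 and 38.1 in KO, against 82.3, 109 and 184 in WT (log2 fold change -1.37, SE 0.26, adjusted p = 0.0025). The 3 KO libraries lay below the 3 WT libraries in all 4 genes. These were picked from the genes called, and the share over all genes was not counted. Pfkp, Egln3 and Hk1 fell, with changes of -0.65 (SE 0.09), -0.59 (SE 0.10) and -0.46 (SE 0.11), and the call of Hk1 was lost when KO and WT ileum were fitted alone (adjusted p = 0.053). Among enzymes of later steps Pkm2 rose by 0.56 (SE 0.12), Gapdh by 0.52 (SE 0.12) and Tpi1 by 0.46 (SE 0.10), and Gpi1 rose by 0.46 (SE 0.07). The collagen hydroxylases P4ha1, P4ha2 and Plod2, the carbonic anhydrase Car9 and Bnip3 did not pass the test, with changes of -0.14, 0.14, -0.39, 0.14 and -0.28, and neither did Hif1a (-0.22, SE 0.13) and Epas1 (-0.15, SE 0.08). Without KO library b, Plod2, Slc2a1 and Aldoa were called lower (adjusted p 0.0013, 0.013 and 0.036), and without KO library c, Hif1a was (0.031).

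The kinases that set fructose 2,6-bisphosphate, the strongest activator of phosphofructokinase, changed beside them. Pfkfb4 and Pfkfb3, both HIF targets, changed by -1.72 (SE 0.15) and -1.63 (SE 0.30), and Pfkfb2 rose by 1.14 (SE 0.07). Of 28 further HIF targets, a list that also holds Pfkfb3 and Pfkfb4, 8 fell and 4 rose, with Ccng2 at -1.82 (SE 0.12) and Insig2 at -1.21 (SE 0.16). Of 11 other glycolytic isoenzymes 4 rose and 0 fell, led by Pklr at 1.20 (SE 0.12) and Eno3 at 1.07 (SE 0.17). Both counts are to be read against the 13.2% of all genes that fell and the 7.00% that rose. Dividing-cell markers summed to between 6347 and 6614 normalised reads per kb in KO ileum, against 6836 to 8341 in WT. Skeletal muscle markers summed to 95.2, 103 and 76.8 in KO libraries a, b and c, and to 301, 587 and 1897 in WT libraries a, b and c. Of the 4 measured, 2 were at 0. Hk2, Slc16a3 and Ankrd37 also rose from WT library a to b to c, and Vegfa did not. The 6 leukocyte markers summed to between 2450 and 4846 in KO and 3541 to 4011 in WT, with means of 3868 in KO and 3821 in WT. Among them the T cell gene Cd3e had 82.5 to 142 in KO, against 184 to 310 in WT. The T cell gene Cd8a had 78.3 to 108 in KO, against 166 to 282 in WT. The other leukocyte markers were thus not lower in sum in KO. The share of all genes without overlap was not counted. Epithelial markers summed, over the deposited means, to 152804 in KO and 188736 in WT. Vil1 averaged 43372 in KO and 79342 in WT, and so made up about all of that difference. The 3 epithelial markers with solved reads summed to 14302 to 14684 in KO and 14539 to 15152 in WT, which overlapped. The part of these cell types was not tested.

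In embryonic intestine the changes were smaller and ran in both directions. By the deposited means 0 members were at least 2-fold lower in KO (8.32% of 16484 genes) and 1 at least 2-fold higher (2.16%). Past the limma threshold 8 fell and 8 rose, where 19.8% and 15.2% of all genes did so (15.9% and 25.4% with equal library totals), and the median change was -0.02, against 0.03 over all genes tested. The rises were found in the collagen-modifying genes, in the hexokinase genes Hk1 and Hk2, in Adm, and in Gpi1 (0.33, SE 0.07) and Pkm2 (0.40, SE 0.12). Plod2 had 1143, 1160 and 1089 normalised reads per kb in KO embryos, against 478, 540 and 490 in WT (log2 fold change 1.17, SE 0.14, adjusted p = 3.6e-05). P4ha1 had 502, 632 and 651 in KO, against 335, 390 and 286 in WT (log2 fold change 0.82, SE 0.21), and P4ha2 744, 764 and 780 in KO, against 392, 614 and 436 in WT (0.69, SE 0.23, adjusted p = 0.032). Fibroblast markers moved the same way, as given above, dividing-cell markers summed to 10413 to 11297 in KO and 8395 to 9462 in WT, and leukocyte markers to 463 to 536 in KO and 946 to 1157 in WT. Their part in these results was not tested. Hk2 had 507, 470 and 487 in KO, against 262, 352 and 266 in WT (log2 fold change 0.75, SE 0.18), Hk1 rose by 0.56 (SE 0.11) and Adm by 0.94 (SE 0.26, adjusted p = 0.014). In these 6 genes, picked from those called, no KO library overlapped a WT library, and the share over all genes was not counted.

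The genes that fell in embryos were Pfkp at -0.62 (SE 0.09), Car9 at -0.62 (SE 0.13), Egln3 at -0.50 (SE 0.10), Vegfa at -0.43 (SE 0.09), Pgk1 at -0.40 (SE 0.13), Ero1l at -0.33 (SE 0.11), Epas1 at -0.26 (SE 0.08) and Pfkm at -0.25 (SE 0.08). Vegfa had 3290, 3268 and 3865 normalised reads per kb in KO embryos, against 4375, 5159 and 4521 in WT. Several of the smaller changes depended on single libraries. The call of P4ha2 was lost when any library but WT library b was left out (adjusted p 0.070 to 0.12), and that of Adm without KO library c or WT library c (0.060 and 0.063). Pkm2 lost its call without KO library b or c or WT library a or c (0.052 to 0.090). Among the genes that fell, Pfkm lost its call when any library but KO library b was left out (0.051 to 0.11). Epas1 lost it without KO library b or any WT library (0.052 to 0.08). Ero1l lost it without KO library a or b or WT library b or c (0.073 to 0.15). Pgk1 lost it without KO library a or WT library b or c (0.074 to 0.12). Without KO library a, 5 members fell, and without WT library b or c, 4 did. Without KO library c or WT library c, 5 rose. Scaled to equal totals, which moved the median of all genes from 0.03 to 0.15, 4 fell and the calls of Pfkm, Pgk1, Epas1 and Ero1l were lost. Among the other lists Pfkfb4, Pfkfb3 and Slc2a2 fell, with changes of -2.22 (SE 0.15), -1.20 (SE 0.30) and -5.07 (SE 0.77). Of 11 genes of the pyruvate dehydrogenase system 6 fell and 1 rose, where 19.8% and 15.2% of all genes did so.

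The difference between the adult and the embryonic change was tested as an interaction in the same model. The change was lower in adults for 6 members, where 10.1% of all genes were, and higher for 2, against 11.0%. Hk2 differed most, by -2.62 on the log2 scale (SE 0.25, adjusted p = 2.7e-05), since it fell in adults and rose in embryos. Slc16a3 differed by -1.98 (SE 0.30), Plod2 by -1.56 (SE 0.20), Hk1 by -1.02 (SE 0.15), P4ha1 by -0.96 (SE 0.30, adjusted p = 0.037) and Vegfa by -0.87 (SE 0.13). Car9 and Gapdh differed in the other direction, by 0.76 (SE 0.18) and 0.61 (SE 0.17). The call of P4ha1 was lost when any library was left out other than adult KO library b or c, embryo KO library a or embryo WT library b (adjusted p 0.053 to 0.092). Without embryo KO library a or embryo WT library b, 1 member was higher in place of 2, since the call of Gapdh was lost. Pfkp and Egln3 fell at both stages, and their differences of -0.03 (SE 0.12) and -0.10 (SE 0.15) did not pass the test.

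**Figure D3:**
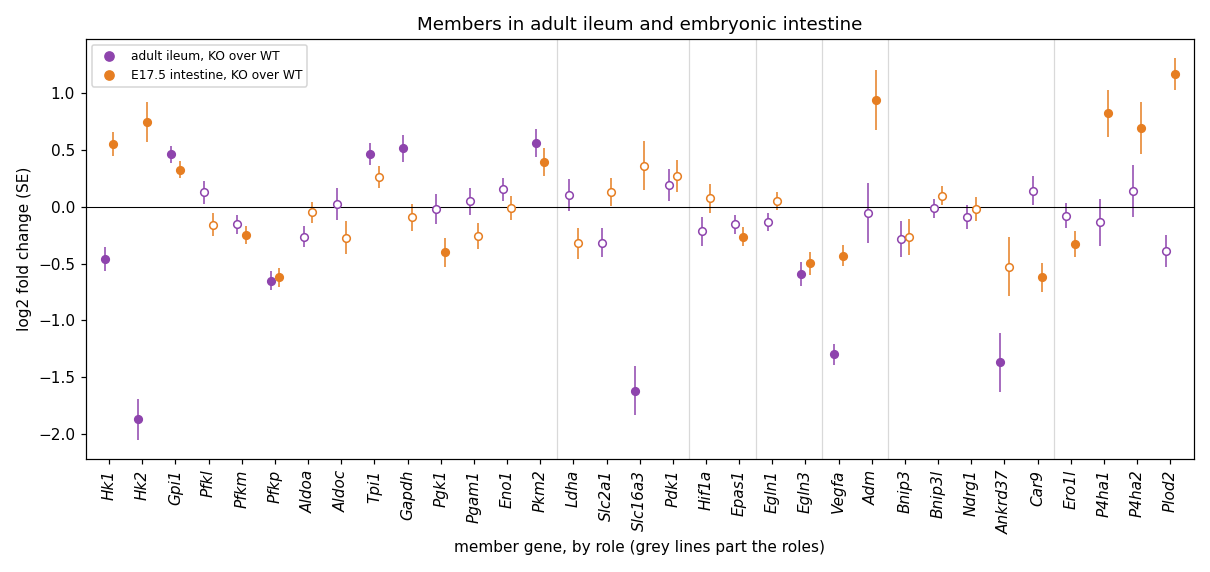
Log2 fold change of KO over WT for the 33 members in adult ileum and in E17.5 intestine, ordered by role, with SE bars from limma and filled circles for genes past the threshold. Hk2 lies at -1.87 in adults and at 0.75 in embryos, and Vegfa and Pfkp lie below 0 at both stages.

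The members also followed development in tissue with Taf4. The comparison uses the WT libraries of both preceding comparisons. In adult WT ileum 11 members were at least 2-fold lower than in embryonic WT intestine, against 15.2% of 17381 genes, and 4 at least 2-fold higher, against 18.3%. Past the limma threshold 20 were lower in adults and 9 higher, where 30.5% and 32.7% of all genes were (40.1% and 25.7% with equal library totals). Ndrg1 had 2601, 2095 and 2180 normalised reads per kb in adults, against 37803, 36473 and 37543 in embryos (log2 fold change -4.03, SE 0.10, adjusted p = 1.1e-11). Slc2a1 had 504, 501 and 526 in adults, against 2114, 2493 and 2407 in embryos (log2 fold change -2.19, SE 0.12). Bnip3, Pfkl, Plod2 and Egln3 were lower in adults, at -2.11 (SE 0.16), -2.09 (SE 0.10), -1.84 (SE 0.14) and -1.78 (SE 0.10). All 4 genes of folding and collagen modification and both prolyl hydroxylases were lower in adults. In the opposite direction, Hk2 had 1616, 2150 and 2449 in adults, against 262, 352 and 266 in embryos (log2 fold change 2.81, SE 0.18), and Pfkp, Adm and Car9 were higher by 1.39 (SE 0.09), 1.32 (SE 0.26) and 1.28 (SE 0.13). Epas1 was higher by 0.86 (SE 0.08), while Hif1a did not pass the test (-0.21, SE 0.13). The phosphofructokinases thus differed in direction, with Pfkl and Pfkm lower and Pfkp higher in adults.

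The 2 tissues differ in segment and make-up as well as in age. The 6 fibroblast markers summed, over the deposited means, to 26256 normalised reads per kb in adult WT tissue and 97296 in embryonic WT tissue. The 3 of them with solved reads went the other way, with sums of 4612 to 4886 in adults and 2674 to 3298 in embryos. Endothelial markers summed to between 610 and 704 in adults and 1826 to 2018 in embryos. Epithelial markers summed, over the deposited means, to 188736 in adults and 48495 in embryos. Their part in the result was not tested. Of 9 HIF partners and turnover genes 4 were lower and 1 higher, with Hif3a at -7.56 (SE 0.21). Of 8 glycogen genes 7 were lower in adults, led by Ppp1r3b at -2.75 (SE 0.15). Both counts are to be read against the 30.5% of all genes that were lower and the 32.7% that were higher. Scaling to equal totals moved the median of all genes from 0.00 to -0.18, and the calls of Hk1, Aldoa and Slc16a3 were then lost. Slc16a3, Aldoa, Tpi1 and Ankrd37, at 0.58, 0.28, -0.29 and -0.72, also lost their calls without 1 of several libraries (adjusted p 0.053 to 0.15).

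**Figure D4:**
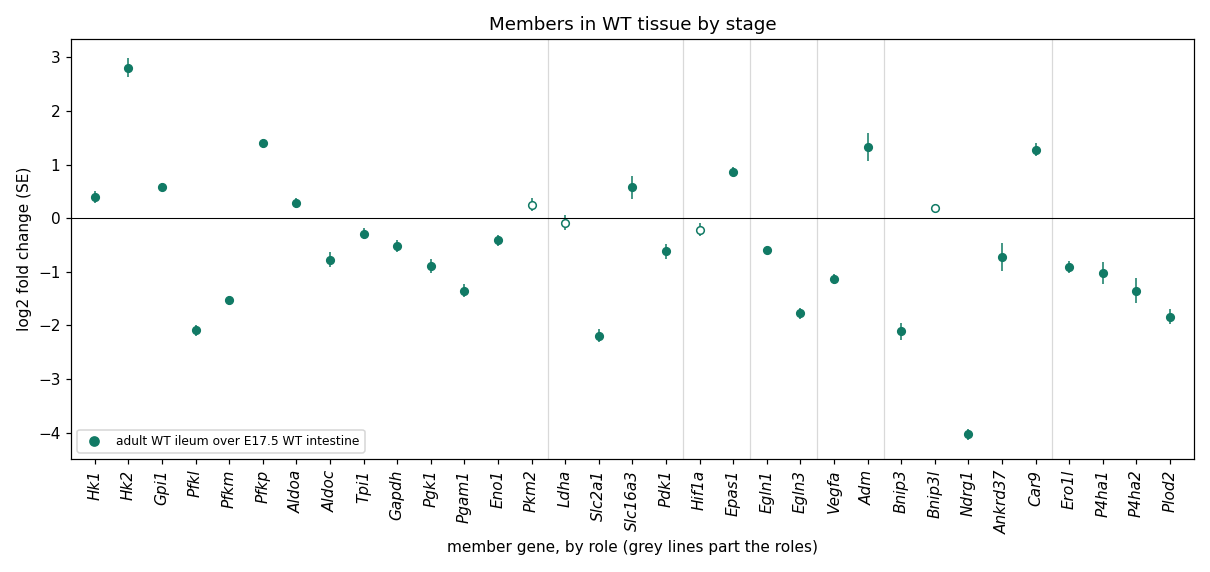
Log2 fold change of adult WT ileum over E17.5 WT intestine for the 33 members, ordered by role, with SE bars from limma and filled circles for genes past the threshold. Ndrg1 is lowest at -4.03 and Hk2 highest at 2.81.

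In tumours driven by loss of Apc, no member passed the limma threshold in Taf4KO-Apc over Apc tumours, in a table where few genes did. At an adjusted p under 0.05, 0 members were lower and 0 higher, against 0.536% and 0.384% of 13794 genes, and with an absolute log2 fold change over 1 the shares of all genes were 0.478% and 0.138%. At an unadjusted p under 0.05, 3 members were lower, against 6.96% of genes, and 4 higher, against 20.0% of genes. With voom on the solved reads 0 members passed as well. All 3 Taf4KO-Apc libraries lay below all 3 Apc libraries in 3 members, against 8.50% of genes, and above them in 5 members, against 26.9% of genes.

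Ankrd37 came nearest to the threshold. It had 10.7, 5.72 and 9.34 FPKM in Taf4KO-Apc tumours, against 19.6, 29.7 and 25.6 FPKM in Apc tumours (log2 fold change of FPKM + 1 -1.46, SE 0.25, adjusted p = 0.057). Pfkp had 38.3, 53.1 and 46.2 FPKM in Taf4KO-Apc tumours, against 73.5, 72.2 and 92.0 FPKM in Apc tumours (-0.78, SE 0.16, adjusted p = 0.074). Epas1 had 10.9, 9.41 and 10.1 FPKM in Taf4KO-Apc tumours, against 14.3, 15.4 and 13.1 FPKM in Apc tumours (-0.46, SE 0.11, adjusted p = 0.087). The groups did not overlap in these 3 genes, nor in Pfkm, Aldoc, Tpi1, Pdk1 and P4ha2, which were higher in Taf4KO-Apc tumours by 0.66, 0.65, 0.29, 0.47 and 0.65. Hk2 had 34.8, 32.5 and 33.1 FPKM in Taf4KO-Apc tumours and 23.6, 24.4 and 52.5 FPKM in Apc tumours, and Slc16a3 had 72.6, 50.5 and 64.2 FPKM in Taf4KO-Apc tumours and 30.9, 92.2 and 82.2 FPKM in Apc tumours, so that both overlapped. FPKM are per length and can be set between genes. Gapdh, at 1753 to 2025 FPKM in Taf4KO-Apc tumours and 1115 to 2023 FPKM in Apc tumours, stood highest of the members, followed by Ldha, at 744 to 788 FPKM in Taf4KO-Apc tumours and 620 to 1143 FPKM in Apc tumours.

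**Figure D5:**
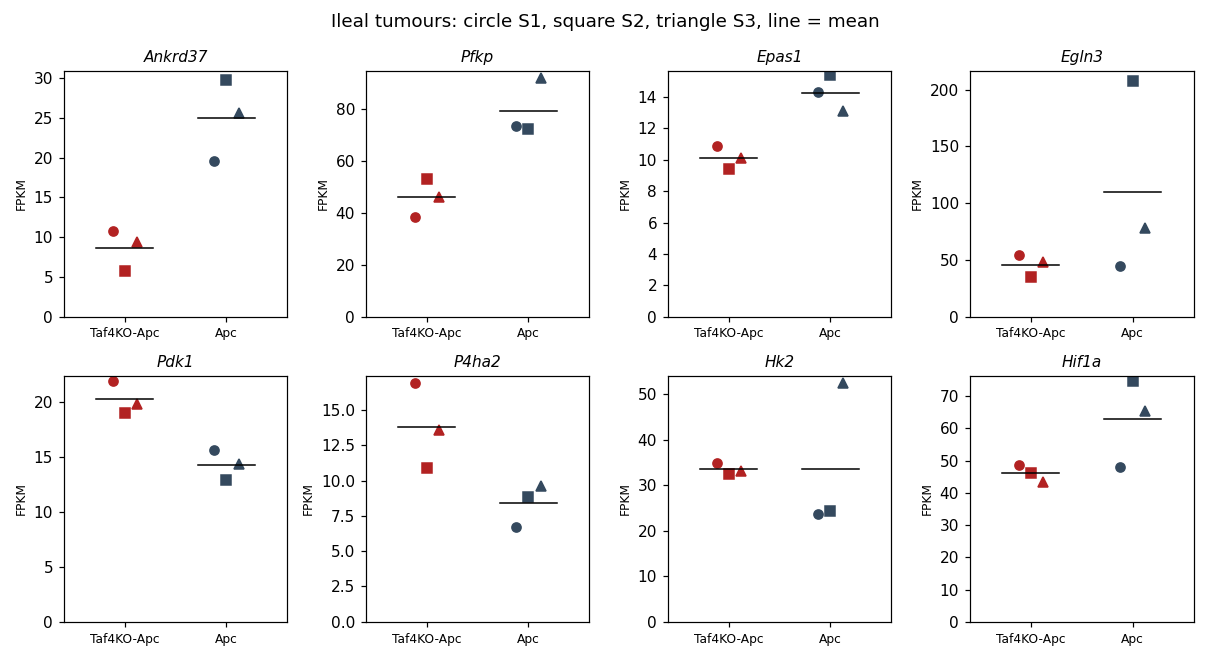
FPKM of 8 members in each of 3 Taf4KO-Apc and 3 Apc tumour libraries, with the mean as a line and every axis starting at 0. Ankrd37, Pfkp and Epas1 are lower in each Taf4KO-Apc library, Pdk1 and P4ha2 higher, and Egln3, Hk2 and Hif1a overlap.

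Of the other pathway genes, Eno3, a glycolytic isoenzyme of muscle, was the only listed gene to pass (0.84, SE 0.10, adjusted p = 0.036). The libraries may not all be independent. Taf4KO-Apc replicate 3, with the joined animal code, lay between replicates 1 and 2 in 30 of 33 members and in 63.5% of all genes, against 37.7% for the third Apc library. Without it Ankrd37 was at -1.53 (SE 0.31, adjusted p = 0.28) and Pfkp at -0.79 (SE 0.21, adjusted p = 0.31), and 0 members and 0 genes were called. Among Apc tumours replicate 1 stood apart in several members, with Slc16a3 at 30.9 FPKM and Egln3 at 44.5 FPKM, and in leukocyte markers, which summed to 277 FPKM there and to 49.9 and 34.8 FPKM in the other 2 Apc libraries, against 61.4 to 95.8 FPKM in Taf4KO-Apc tumours. Smooth muscle markers summed to 83.6 to 129 FPKM in Taf4KO-Apc tumours and 132 to 389 FPKM in Apc tumours. Epithelial markers summed to 4399 to 5236 FPKM in Taf4KO-Apc tumours and 5052 to 7928 FPKM in Apc tumours. Dividing-cell markers summed to 153 to 177 FPKM in Taf4KO-Apc tumours and 155 to 169 FPKM in Apc tumours. The part of these cell types in the result was not tested. Without Apc replicate 1, Pfkm was called higher (adjusted p = 0.037).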

How the data were processed

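RNA was sequenced from 27 libraries in 9 groups of 3. The submitters' processing notes name bcl2fastq 2.17.1.14, cutadapt 1.10, Bowtie2 2.2.8, STAR 2.5.3a, HTSeq and DESeq2, and both mm9 and mm10. The labels describe a stranded kit and the methods amplified cDNA. What the authors deposited for tissue and organoids is a signal per gene and group, the mean of size-factor-normalised reads divided by the median transcript length. For tumours they deposited FPKM per library. Deposited columns of fold changes and p-values of their own comparisons were not used.

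Group means were first compared as log2((mean + 1)/(mean + 1)) where either mean reached 10, with no test, because only means were expected. Whole reads of the 3 libraries were then found to be recoverable by a search up to 25000 reads, for 97.9% to 98.0% of genes, with at most 0.0673% recovered for a wrong length. In organoids Aldoa, Gapdh, Eno1, Pkm2 and Ldha of controls, Gapdh of 4-OHT, and Tpi1, Aldoa, Pkm2, Gpi1, Gapdh, Pgk1, Ldha and Eno1 of EPZ were not recovered. Their values are means only. The recovered libraries were tested with limma 3.58.1 (R 4.3.3, 1 fit per table on log2(normalised reads + 1), trend, genes with a mean of at least 10 normalised reads in a group), and p-values were adjusted by Benjamini-Hochberg. These tests, and the interaction, were added after the data were seen. Outside tumours, members whose libraries did not overlap are described only where already called, and the share over all genes was not counted. Tumours were tested with limma on log2(FPKM + 1), as planned, keeping genes whose average reached 1 FPKM in either tumour group. FPKM also gave whole reads for 99.99% of genes above 0, used for depth and a voom alternative. Scripts were tested on simulated data. Depth was 11.8 to 39.1 M reads per library, and intervals cover counting error only.

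Near-identical pseudogenes make the values of Gapdh, Pgam1, Ldha, Eno1, Aldoa, Tpi1 and Pkm2 uncertain, and median transcript lengths make levels of different genes incomparable outside tumours. The 33 members may all be named. Of other pathway lists at most 4 genes per list and comparison were named, those with the largest change among the called, and a withheld item is not reported here. Members and lists were chosen with earlier results of these data known. Alternatives were other scalings, pseudocounts, filters and folds, fits of the compared groups alone, leaving out each library and a replicate block in tumours.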

Additional observations from a re-analysis of the deposited data

Results flagged for a closer look

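For 8 of the 33 members the KO change in adult ileum differed from that in E17.5 intestine by the interaction in the limma fit, each with Benjamini-Hochberg adjustment over all genes. The change was lower in adults for 6 of them, where 10.1% of all genes were, and higher for 2, against 11.0%. The count thus lay near the background, and the values describe single genes. The adult change minus the embryonic change was -2.62 on the log2 scale for Hk2 (SE 0.25, adjusted p = 2.7e-05), with -1.87 in adults and 0.75 in embryos. For Slc16a3 it was -1.98 (SE 0.30, adjusted p = 0.00075), for Plod2 -1.56 (SE 0.20, adjusted p = 0.00021) and for Hk1 -1.02 (SE 0.15, adjusted p = 0.00052). For P4ha1 it was -0.96 (SE 0.30, adjusted p = 0.037) and for Vegfa -0.87 (SE 0.13, adjusted p = 0.00063). Car9 differed by 0.76 (SE 0.18, adjusted p = 0.0092) and Gapdh by 0.61 (SE 0.17, adjusted p = 0.022). All 3 adult KO libraries lay below all 3 adult WT libraries in Hk2, Slc16a3, Hk1 and Vegfa, which were already called. The share over all genes was not counted. The stages also differ in the Cre driver, the time since deletion and the tissue taken, which cannot be told apart from age.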

How the results depend on the processing

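No value changed sign where it had passed a test. With means scaled to equal totals, members at least 2-fold higher were 2 in embryo KO, 2 in adult over embryo WT and 1 in EPZ over control organoids, and the medians of members were 0.12 in embryo KO, 0.085 in adult KO, where the median was -0.085 as deposited, and -0.93 in adult over embryo WT. At 1.5-fold, 2 members were lower and 5 higher in embryo KO, 17 lower in adult over embryo WT, 2 lower in EPZ over 4-OHT organoids, and 6 lower and 6 higher in EPZ over control organoids. Fitted on the 2 compared groups alone, calls were lost for Hk1 in adult KO (adjusted p = 0.053), Slc16a3 and Ankrd37 by stage (0.051 and 0.054), Pfkp and Hif1a in EPZ over 4-OHT (0.065 and 0.067) and Hk2 in EPZ over control (0.055). With no filter on low values, 9 calls were lost (0.055 to 0.080). In the limma fit, equal totals left 4 members lower in embryo KO. Leaving out each library gave 4 to 8 members lower and 5 to 8 higher in embryo KO, 5 to 14 lower and 2 to 5 higher in EPZ over control, 1 to 3 higher for the stage difference, and 0 to 1 higher in tumours, where the member called without Apc replicate 1 was Pfkm. With 4-OHT over control, 22 to 23 members fell and 2 rose without each library in turn. The tumour median of members ranged over -0.075 to 0.20, and no gene was called without Taf4KO-Apc replicate 2 or 3.

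With the replicate number as a block (replicate block), 0 members were lower and 0 higher in tumours, the median stayed at 0.10, and 1 gene in all was called. Same-numbered tumour libraries deviated together with correlations of -0.17, -0.20 and -0.04, so they share only a number. No paired analysis was possible because the recovered libraries of embryos, adults and organoids carry no replicate number. Only means were available for the most abundant enzymes in organoids, and the smallest difference that 3 libraries can show in tumours is limited by SE values of up to 0.55 among members.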

Other observations

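Libraries of 1 group kept their rank over many members. Control organoid library b was the lowest of 3 in 27 of 28 members, embryo WT library b was the highest in 26 of 33, and embryo KO library a the lowest in 23 of 33. Among tumours, Egln3 had 208 FPKM in Apc replicate 2, against 44.5 and 77.8 FPKM in the other 2 Apc libraries.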
